A study of Homo sapiens with 7 samples.

Results

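The 104 stretches described here are the interior 1 Mb bins of the autosomes in which 5-hydroxymethylcytosine (5-hmC) peaks lay most densely in normoxic SK-N-BE(2) cells. A bin was taken when 250 or more peak midpoints of the 0 h list fell in it, and bins within 2 Mb of either chromosome end were left out. This chose 104 of 2784 interior bins (3.74%), which held 30616 of the 285292 peaks at 0 h. Peaks with a midpoint in these bins, in the lists of 0, 6, 12, 24, 48 and 72 h, numbered 30616, 30759, 31077, 31663, 32211 and 32738; series of values below keep this order.

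The cells came from a wild-type culture of SK-N-BE(2), an established human neuroblastoma line with an amplified MYCN gene. They were kept at 21% oxygen (normoxia, 0 h) or at 1% oxygen (hypoxia) for 6, 12, 24, 48 or 72 h. DNA fragments that held 5-hmC were labelled with a modified glucose, tagged with biotin, captured and sequenced, and each time has 1 library and 1 list of enriched regions (peaks). No value therefore has a replicate error, normoxia was sampled at 0 h alone, and read depth is unknown.

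5-hmC is made from 5-methylcytosine by the TET enzymes, dioxygenases that use oxygen, iron and 2-oxoglutarate. In many tissues the mark is found over the bodies of expressed genes and at enhancers, and it is sparse in gene-poor, inactive chromatin. The capture reads the mark as enriched stretches of DNA, so in a crowded region a list can change in several ways: a new peak can appear, a peak can vanish, a peak can widen, or neighbours can fuse into 1 peak.

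The bins were chosen on the 0 h number, so the 0 h number itself, and any change measured from it, is a description here and carries no test. The 5 members just inside the threshold held 250, 251, 251, 251 and 251 peaks at 0 h, and the 5 interior bins just outside held 249 each. At 72 h those just inside held 265, 284, 273, 297 and 276 peaks, and those just outside 265, 266, 293, 256 and 270. The fullest members lay, in hg19, on chromosome 4 from 7 to 8 Mb (389 peaks at 0 h), chromosome 1 from 245 to 246 Mb (386), chromosome 9 from 132 to 133 Mb (380), chromosome 16 from 85 to 86 Mb (368) and chromosome 14 from 100 to 101 Mb (366). The median member held 279.5 peaks at 0 h.

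The dense bins were spread over 21 of the 22 autosomes. Chromosome 17 had the largest share, with 11 of its 77 interior bins (14.3%), followed by chromosome 20 with 5 of 58 (8.62%) and chromosome 22 with 4 of 47 (8.51%). Chromosome 1 held 15 members, the most of any chromosome, and chromosome 18 held 0 of 74. Over the 22 autosomes, the share of interior bins that were members had a Spearman's rho of 0.571 with the density of protein-coding genes, given as a description. Chromosome 19, the most gene-dense, had 3 members of 55 bins (5.45%). Gene numbers came from a GRCh38.p14 table, and no gene positions were joined to the hg19 peaks.

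Most members stood alone. The 104 bins formed 67 single bins, 10 pairs, 4 runs of 3 and 1 run of 5. The run of 5 lay on chromosome 17 from 74 to 79 Mb, on the long arm, which is often gained in neuroblastoma. Of the 11 members of chromosome 17, 9 lay on that arm, but it also holds most of the interior bins of the chromosome. Any part of copy number was not tested. The run held 1585, 1677, 1678, 1688, 1753 and 1770 peaks from 0 to 72 h, a ratio of 1.12 between 72 and 0 h. The run of 3 on chromosome 9 from 136 to 139 Mb stayed nearly level, with 1049, 1043, 1042, 1058, 1050 and 1042 peaks at the same times.

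Peak number in the dense bins was little higher after 72 h of hypoxia than in normoxia, while the other interior bins held many more peaks. The 72 h list held 6.93% more peaks there than the 0 h list, a ratio of 1.07 (95% exact binomial interval 1.05 to 1.09, counting error only), against a ratio of 1.26 in the 2680 other interior bins. From 6 to 48 h the ratio to 0 h in the dense bins took the values 1.00, 1.02, 1.03 and 1.05. In the 501 interior bins with 150 to 249 peaks at 0 h it reached 1.15 at 72 h, and in the 2179 with fewer than 150 it reached 1.34. The share of all listed peaks that fell in the dense bins ran through 10.7, 10.5, 10.6, 10.1, 9.56 and 9.29% from 0 to 72 h.

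The choice of bins on a high 0 h number favours a lower ratio to 0 h, so the ratio was also taken without the list that chose the bins. From 6 to 72 h, both lists that the rule did not use, the ratio was 1.06 in the dense bins and 1.23 in the other interior bins. In the 118 bins that reached 250 peaks at 6 h, the ratio of number between 72 and 0 h was 1.08, and in the 128 that reached it at 12 h it was also 1.08. The number of peaks per list was then held equal, in the 104 bins that the 0 h list chose. Keeping only the 285292 widest peaks per list, a choice that drops the narrowest peaks of the 5 hypoxia lists and none of the 0 h list, the direction turned round in the dense bins, to 0.922 between 72 and 0 h, against 1.02 in the other interior bins. Between 72 and 6 h the same choice gave 0.935 in the dense bins and 1.01 in the other interior bins.

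**Figure D1:**
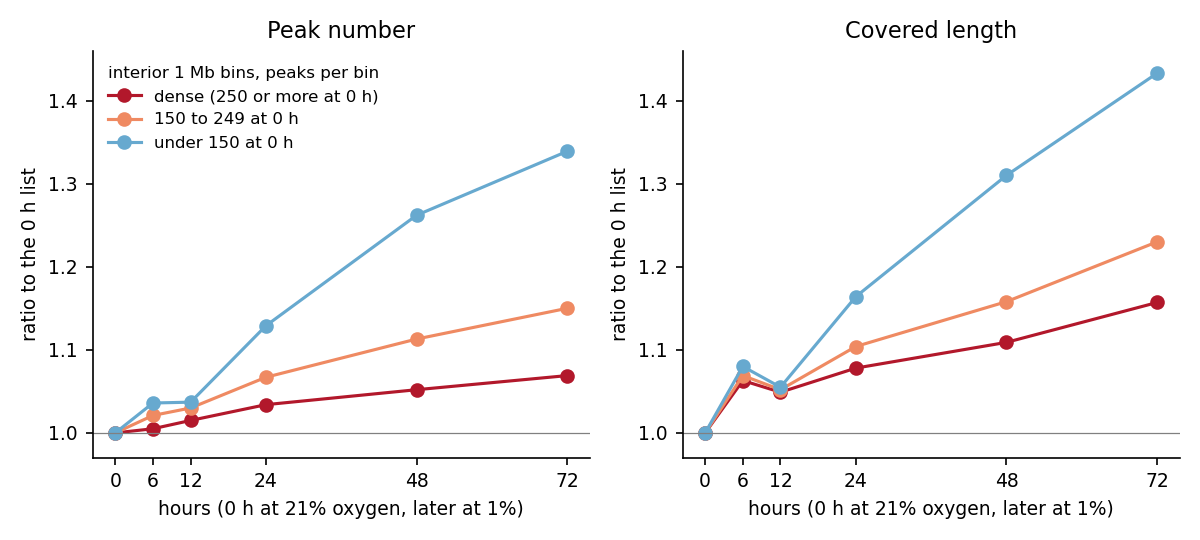
Ratio of each list to the 0 h list in peak number (left) and covered length (right), against hours, for interior 1 Mb bins grouped by their 0 h number; each point is 1 library. At 72 h the dense bins stood at 1.07 in number and 1.16 in covered length, below both other groups of bins.

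The members moved unevenly from list to list. Fewer peaks than at 0 h were found in 44, 34, 19, 15 and 9 of the 104 members in the 5 hypoxia lists, by time. Among all 2275 interior bins with at least 20 peaks at 0 h, the shares with fewer peaks were 30.5, 29.3, 6.42, 3.34 and 1.71%. Number was higher at each step than at the one before in 7 members, and the 72 h list was the fullest of the 6 in 59. Neither count was taken over the other interior bins, so neither sets the members apart. The median member held 284, 289.5, 294.5, 301.5 and 308 peaks from 6 to 72 h. The threshold of 250 was met by 101 of the 104 members at 6 h and by all 104 at 72 h, when 194 interior bins met it.

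Number was also compared from 6 to 72 h, without the list that chose the bins. Number was at least 1.1 times as high at 72 h in 29 of 104 members, where 82.2% of the 2285 interior bins with at least 20 peaks at 6 h reached that ratio. Divided by the ratio of the list totals (1.204), number was lower by the same fold in 72 members, against 16.8% of those bins, and higher in 0 members, against 31.4%. Earlier lists over 6 h gave 0, 4 and 56 members lower at 12, 24 and 48 h, where the shares of all bins were 7.70, 6.56 and 11.9%. In those lists 0 members were higher, against 7.48, 15.5 and 27.1% of bins. The totals themselves differed by that ratio, so a bin with a steady number counts as lower on this scale. The count of 72 became 33 with the 285292 widest peaks of each list, where 14.5% of bins were lower, and 10 at a fold of 1.2, where 2.01% were. The shares of all bins include bins with as few as 20 peaks at 6 h, where a change of few peaks reaches the fold. Members held 241 to 402 peaks at 6 h. Shares at such unlike numbers are not fully comparable, and the part of this was not tested.

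**Figure D2:**
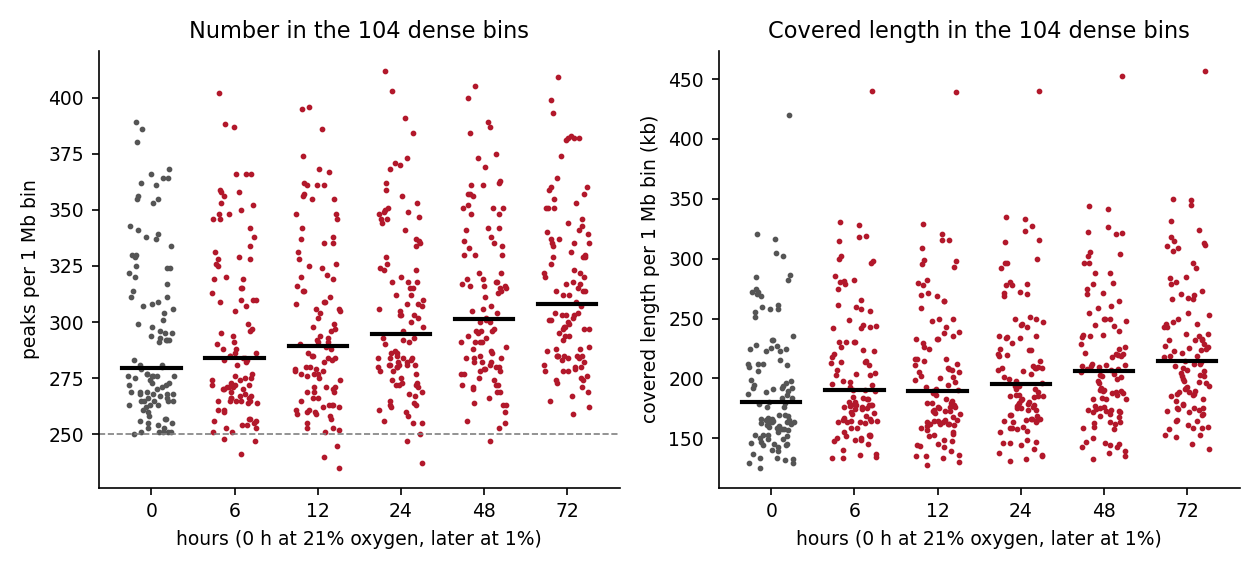
Peak number (left) and covered length in kb (right) of each of the 104 dense bins in each list, with the 0 h list in grey, the 5 hypoxia lists in red and a black bar at the median; the dashed line is the threshold of 250 peaks that chose the bins at 0 h. The clouds overlap widely between times, and the median number was 308 at 72 h, against 279.5 at 0 h.

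Among the members, those with the lowest number at 72 h relative to 6 h included the 2 most heavily covered at 72 h. The lowest was the bin of chromosome 16 at 85 to 86 Mb, where 368, 352, 348, 347, 330 and 329 peaks were listed. Its peaks covered 457 kb at 72 h, against 420 kb at 0 h, the highest covered length of all members at both times. Next were chromosome 9 from 136 to 137 Mb (334 peaks at 72 h, against 346 at 6 h), chromosome 9 from 138 to 139 Mb (357 at 72 h against 366), chromosome 14 from 100 to 101 Mb (381 against 387) and chromosome 17 from 64 to 65 Mb (329 against 334). At the other end stood the bin of chromosome 1 at 6 to 7 Mb, where 295, 286, 306, 307, 316 and 339 peaks were listed. It was followed by chromosome 19 from 5 to 6 Mb (322 at 72 h, against 274 at 6 h), chromosome 2 from 2 to 3 Mb (294 against 251), chromosome 7 from 28 to 29 Mb (314 against 270) and chromosome 6 from 157 to 158 Mb (303 against 265). Over the 104 members, covered length at 12 h had a Spearman's rho of -0.365 with the ratio of number between 72 and 6 h, a description over bins that share their libraries. Peak number at 12 h had a rho of -0.333 with that ratio over the members. Over the 2285 interior bins with at least 20 peaks at 6 h it was -0.63, so such a relation was not particular to the members.

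Covered length differed more than number. Peaks covered 20.2, 21.5, 21.2, 21.8, 22.5 and 23.4 Mb of the dense bins from 0 to 72 h. This is 22.5% of their length at 72 h, against 19.5% at 0 h, where the other interior bins had 5.75% and 4.28%. At 72 h covered length was 15.7% above that at 0 h in the dense bins, and 34.2% above it in the other interior bins. It was higher at 72 h than at 0 h in all 104 members, including the 9 with fewer peaks, and the ratio ranged from 1.03 to 1.32 with a median of 1.17.

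The step from 0 to 6 h was the one at which number and length parted most. In the 6 h list number stood 0.467% and covered length 6.25% above normoxia, and in the 12 h list length stood 4.86% above it. The other interior bins showed the same high 6 h length, 7.48% above normoxia, where the 12 h list gave 5.38%. Chosen after their values were seen, the largest gains in covered length lay on chromosome 17 from 2 to 3 Mb, with 211.8 kb at 72 h against 160.2 kb at 0 h, and from 78 to 79 Mb, with 292.5 kb against 222.9 kb. The smallest lay on chromosome 11 from 68 to 69 Mb, with 269.9 kb at 72 h against 260.9 kb at 0 h.

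Counted per Mb rather than as a ratio, the dense bins had the most added covered length and the most peaks at gained sites, but the smallest net change in number. Covered length at 72 h exceeded that at 0 h by 30.6 kb per Mb there, by 23.5 kb per Mb in the bins with 150 to 249 peaks and by 12.6 kb per Mb in those with fewer. At sites without a 0 h peak, 60.4 peaks per Mb were listed at 72 h in the dense bins, 52.6 in the medium bins and 30.1 in the sparser ones. The net change in number was 20.4 peaks per Mb in the dense bins, 28.2 in the medium and 21.9 in the sparser bins, of which 183 held no peak in any list.

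To see what the small net change was made of, overlapping peaks of the 0 and 72 h lists were joined into sites. A site with 72 h peaks alone was counted as gained and a site with 0 h peaks alone as lost. Where both lists had peaks, a surplus at 72 h was counted as split and a deficit as joined. Per 100 peaks at 0 h, the dense bins gained 20.5, lost 8.80, added 2.64 by splitting and gave up 7.44 by joining, a net change of 6.93. The bins with fewer than 150 peaks gained 46.6, lost 10.4, added 1.12 and gave up 3.43 per 100, a net change of 33.9. In peaks, the dense bins gained 6285, lost 2693, added 809 and gave up 2278.

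Joining thus took away nearly as many peaks as outright loss in the dense bins. Per 100 peaks at 0 h, the largest difference from the sparser bins lay in the gain, but these rates are divided by the number that chose the bins. Per Mb the dense bins gained more peaks, 60.4 against 30.1 in the sparser bins. They also lost more per Mb, 25.9 against 6.73, and gave up more by joining, 21.9 against 2.22. Gain minus loss was 11.7 per 100 peaks at 0 h in the dense bins, 18.1 in the medium and 36.2 in the sparser ones. Splitting minus joining was -4.80 per 100 in the dense bins, -3.05 in the medium and -2.31 in the sparser ones. The lists of 6 to 48 h, set against 0 h, gave the dense bins gains of 14.1, 14.0, 15.4 and 18.0 per 100, and joining of 5.80, 5.40, 5.65 and 6.38. All of these share the 0 h list.

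Turnover was also seen between lists of similar length. From 6 to 12 h the dense bins gained 11.3, lost 11.1, added 4.65 by splitting and gave up 3.82 by joining per 100 peaks at 6 h. Gains and losses were then nearly equal, and splitting exceeded joining. Between 72 and 0 h the gain was larger than that, the loss smaller, and joining exceeded splitting. The 0 and 6 h lists were also close in number in the dense bins. From 0 to 6 h these bins gained 14.1, lost 10.8, added 2.92 by splitting and gave up 5.80 by joining per 100 peaks at 0 h. Joining thus exceeded splitting already at 6 h when the 0 h list was the reference. No test was made of these differences, since each time has 1 library.

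**Figure D3:**
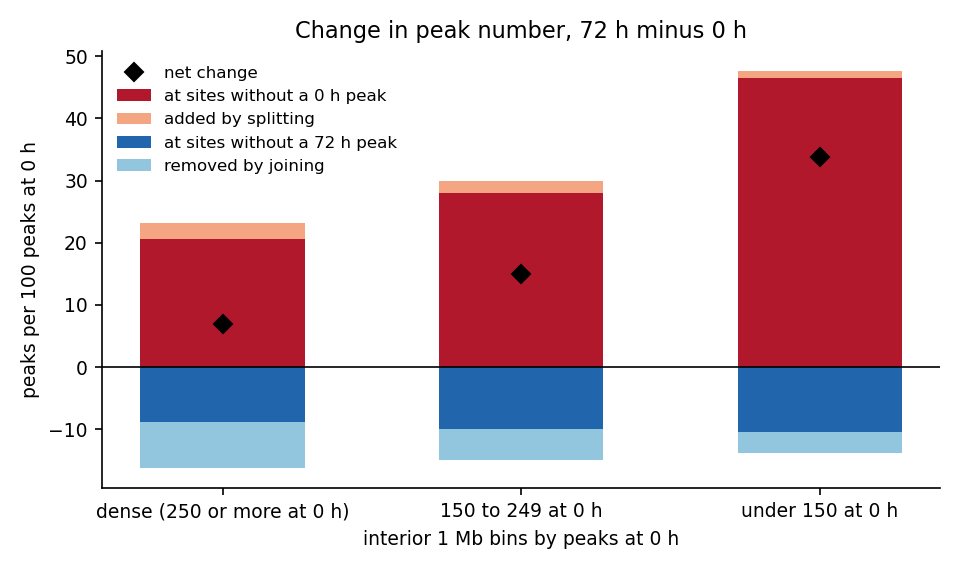
Peaks at 72 h relative to 0 h, per 100 peaks at 0 h, in interior 1 Mb bins grouped by 0 h number: bars above 0 give peaks at sites without a 0 h peak and peaks added by splitting, bars below 0 give 0 h peaks at sites without a 72 h peak and those removed by joining, and diamonds the net change. Gains were 20.5 per 100 in the dense bins and 46.6 in the sparser bins, and joining removed 7.44 and 3.43.

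The bases were accounted for in the same way. Of the sequence newly covered at 72 h in the dense bins, 3180 kb was added at sites already marked at 0 h and 2193 kb lay at gained sites, so that gained sites made up 40.8% of it. In the bins with fewer than 150 peaks gained sites made up 61.3%. Sites kept in the dense bins gave up 1391 kb of 0 h length, and lost sites 804 kb. Of the length covered at 0 h, 89.2% was covered again at 72 h in the dense bins, and 86.5% in the sparser ones.

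Peaks of 72 h that overlapped 2 or more 0 h peaks were commoner in the dense bins. They numbered 2309 of 32738 (7.05%, exact interval 6.78 to 7.34%), against 3.27% in the other interior bins (3.20 to 3.33%). In the lists of 6 to 48 h the share in the dense bins was 6.34, 5.88, 5.96 and 6.45%. In the opposite direction, 3.46% of 0 h peaks overlapped 2 or more 72 h peaks. The 0 h list chose the bins for closely set peaks, so the share was also taken without it. Of 72 h peaks in the dense bins, 5.81% overlapped 2 or more 6 h peaks, against 2.75% in the other interior bins. Between the 6 and 12 h lists, of similar length, the share in the dense bins was 5.31% of 6 h peaks and 4.53% of 12 h peaks. Of the 72 h peaks in the dense bins, 233 joined 3 or more 0 h peaks, and 4884 peaks of 0 h (16.0%) lay under a joining peak. Joining peaks were wide, with a median of 1401 bp.

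The 72 h peak that joined most lay on chromosome 9 from 136821070 to 136826966. It measured 5897 bp and covered 7 peaks of 0 h, the widest of them 1414 bp. The same stretch held 3, 4, 2 and 3 peaks from 6 to 48 h, so the number was not lower at each step. Before 72 h the peaks overlapping it, counted at their full width, summed to 4650, 5202, 4531, 5030 and 4885 bp.

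On chromosome 16 from 85650299 to 85659700, 5 peaks of 0 h lay under a 72 h peak of 9402 bp. That stretch held 3, 4, 3 and 1 peaks from 6 to 48 h, and its 5 peaks of 0 h already summed to 8790 bp. A further 5 peaks lay under 1 peak on chromosome 5 from 168212966 to 168217563, where 4, 4, 5 and 2 peaks were listed from 6 to 48 h. The last 2 of the 5 named peaks lay on chromosome 1 from 10740474 to 10749508 and on chromosome 17 from 74677827 to 74686470, each over 4 peaks of 0 h. The 0 h peaks overlapping these 2 stretches, of 9035 and 8644 bp, summed to 8205 and 7954 bp, counted at their full width.

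The share of peaks lost to joining differed between members. In the bin of chromosome 16 from 85 to 86 Mb, 68 of 368 peaks at 0 h (18.5%) were given up by joining, against 38 gained, 19 lost and 10 added by splitting. Next came chromosome 19 from 3 to 4 Mb, with 35 of 277 (12.6%). The lowest share was on chromosome 7 from 69 to 70 Mb, with 6 of 292 (2.06%), where 53 peaks were gained and 31 lost. These bins were picked after their values were seen.

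Spacing showed where joining could happen. The median gap between neighbouring peaks in the dense bins was 1090, 1086, 1089, 1080, 1093 and 1067 bp from 0 to 72 h, almost level throughout. In the other interior bins it was 2422 bp at 72 h, against 2620 bp at 0 h. The longer gaps were shorter at 72 h: the upper quartile in the dense bins was 2739 bp, against 2910 bp in normoxia, and the lower quartile 402 bp, against 390 bp. Spacing follows from the number that chose the bins and is given without a test.

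A gap was called spanned when a single peak of the other list overlapped both of its neighbours. At gaps under 250 bp, 43.3% were spanned at 72 h in the dense bins (exact interval 41.9 to 44.7%), against 41.9% in the other interior bins (41.2 to 42.5%). From 250 to 499 bp the shares were 8.45% and 6.75%, and from 500 to 999 bp 0.916% and 0.663%. From 1000 to 1999 bp, 0 of 5476 gaps were spanned in the dense bins, where a limit of 3 gaps in the total allows a share of up to 0.0548% and the upper exact bound is 0.0673%. Over gaps of all sizes 8.43% were spanned in the dense bins and 4.47% elsewhere. Gaps under 250 bp made up 16.4% of gaps in the dense bins and 9.11% elsewhere, so shares at matched gap size differed less than the totals.

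The spanned share of gaps under 250 bp in the dense bins was 37.3, 35.7, 36.4 and 39.3% from 6 to 48 h, with the highest value at 72 h. In the other interior bins it was 33.5, 30.4, 34.0 and 37.4%. Taken the other way, 19.4% of 72 h gaps under 250 bp in the dense bins were spanned by a 0 h peak, against 15.2% elsewhere. Of 6 h gaps under 250 bp, 28.2% were spanned at 12 h in the dense bins. Small gaps are therefore spanned in part between lists of like length. For the same 0 h gaps the nearer comparison is the 37.3% spanned at 6 h, when number in the dense bins was close to that at 0 h. The 72 h share was higher than that by less than it was above the 28.2%.

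**Figure D4:**
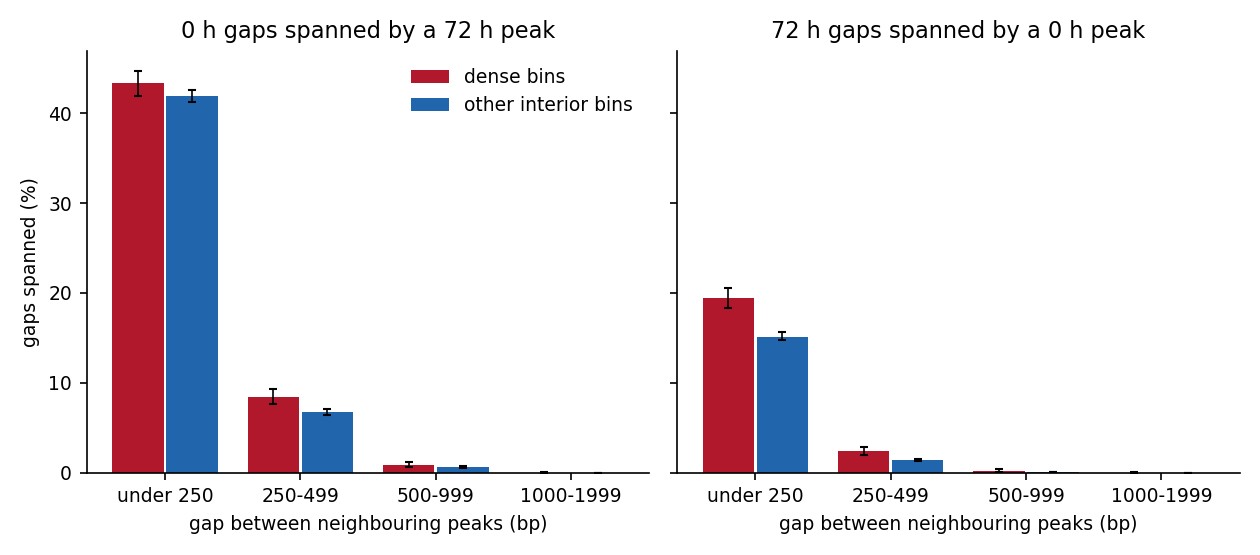
Share of gaps between neighbouring 0 h peaks spanned by a 72 h peak (left), and of gaps between 72 h peaks spanned by a 0 h peak (right), by gap size in bp, in dense and other interior bins; error bars are 95% exact binomial intervals for counting error. At gaps under 250 bp the shares were 43.3% in dense and 41.9% in other bins at left, and 19.4% and 15.2% at right.

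Longer gaps were filled, not spanned. A 72 h peak that touched neither neighbour lay in 15.0% of 0 h gaps of 1000 to 1999 bp in the dense bins, 27.3% of those of 2000 to 4999 bp, 42.4% of those of 5000 to 9999 bp and 59.8% of those of 10000 bp or more. In the other interior bins the shares were 12.0%, 23.9%, 37.2% and 60.4%. At matched size the share was higher in the dense bins up to 9999 bp. The class of 10000 bp or more has no upper limit, so size is not matched there. The 90th percentile of 0 h gaps was 6675 bp in the dense bins and 20273 bp in the other interior bins. Over all gaps 16.0% were filled in the dense bins and 25.2% elsewhere. Gaps of 10000 bp or more were 5.54% of all gaps in the dense bins and 21.3% elsewhere.

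Inside the dense bins the peaks were spread slightly more evenly at 72 h than in normoxia. Of 50 kb windows, the densest 10% held 19.2, 18.9, 18.8, 18.5, 18.1 and 17.8% of the peaks from 0 to 72 h, with windows ranked within each list. The fullest window held 36 peaks at 72 h, against 37 in normoxia, and the median window 16, against 15. Of the 2080 windows, 15 were empty at 72 h and 16 in normoxia.

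Peaks in the dense bins were wider than those in the other interior bins, in all 6 lists. Their median width was 472, 495, 487, 492, 497 and 511 bp from 0 to 72 h. In the other interior bins it was 387, 402, 393, 399, 401 and 414 bp. The difference averaged 93.0 ± 4.24 bp (SD over 6 lists), and peaks in the dense bins were the wider in 6 of 6 lists (exact two-sided sign-flip permutation p = 0.0312, the smallest that 6 lists allow). Without the 0 h list, which chose the bins, it averaged 94.6 bp over 5 lists, where the smallest p is 0.0625. The lists come from the same line and the same bins, and 58.1% of regions in the dense bins were present in each list. They are therefore not independent, though the test treats each as 1 unit.

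Wide peaks were also more frequent in the dense bins than in the other interior bins. Peaks of at least 1000 bp made up 15.9, 17.6, 16.7, 17.1, 17.5 and 18.1% of peaks in the dense bins from 0 to 72 h. In the other interior bins they made up 7.20% at 72 h, against 6.28% in normoxia. In number, wide peaks in the dense bins were 5938 at 72 h, against 4872 in normoxia. Peaks under 300 bp made up 14.0% of those in the dense bins at 72 h, against 20.1% in normoxia. The narrowest peak of a whole list differed as well, at 226, 235, 231, 233, 232 and 242 bp from 0 to 72 h, and the share of peaks under 300 bp was highest in the list where it was lowest and lowest where it was highest. With it subtracted, the median width in the dense bins was 246, 260, 256, 259, 265 and 269 bp. Its part in the share of narrow peaks was not tested.

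Over the 6 lists, median width in the dense bins had a Pearson's r of 0.849 with hours. Its exact permutation p was 0.0236 (two-sided), and 0.0708 once adjusted. Spearman's rho was 0.829, where the exact permutation p was 0.0583 and the adjusted value 0.0875. The relation did not pass after Benjamini-Hochberg adjustment over 3 relations, and r was 0.602 without the 2 lists lying farthest from the middle of the time course. Without the 72 h list r was 0.663, and its exact permutation p 0.242.

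The share of peaks of at least 1000 bp had an r of 0.765 with hours, with an exact permutation p of 0.0722 and an adjusted value of 0.0889. Its rho was 0.657, with 0.175 for both by the exact permutation, and r was 0.432 without the same 2 times. Without the 6 h list, whose peaks were wide for its time, r was 0.972 (exact permutation p = 0.0167). The difference in median width between dense and other bins, a relation added after the data were seen, was 85, 93, 94, 93, 96 and 97 bp from 0 to 72 h. Its r with hours was 0.752, with 0.0889 as both raw and adjusted p by exact permutation. Its rho was 0.899, with a raw exact permutation p of 0.0278 and an adjusted one of 0.0833. Without those 2 times r was 0.663.

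**Figure D5:**
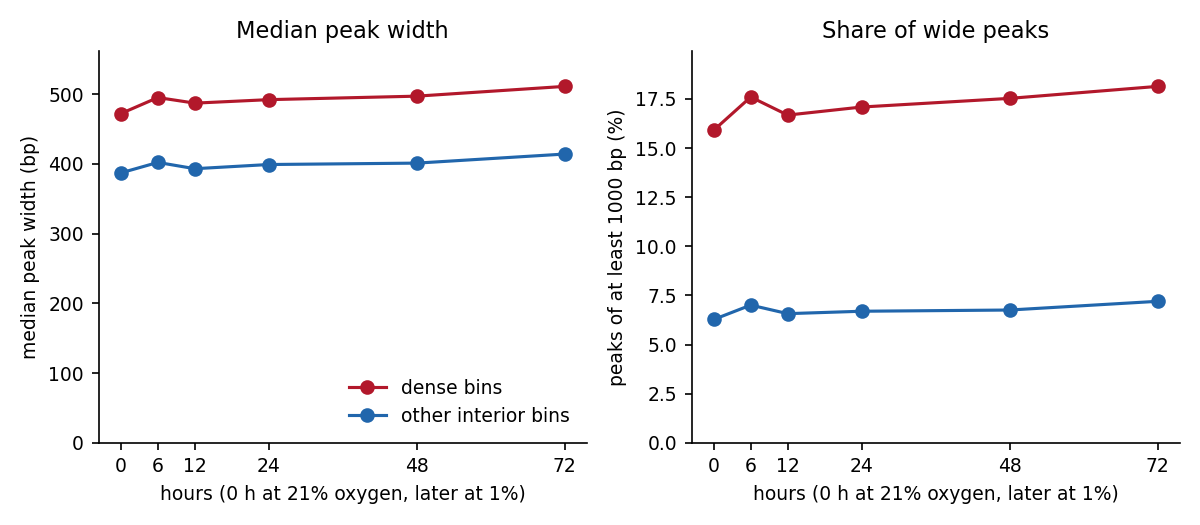
Median peak width in bp (left) and share of peaks of at least 1000 bp (right) in each list, against hours, in dense and other interior bins; each point is 1 library. Dense bins lay above the others in all 6 lists, with medians of 472 to 511 bp against 387 to 414 bp.

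At sites that had exactly 1 peak in each of the 6 lists, which leaves out joined and split sites, the difference in width between 72 and 0 h was no larger in the dense bins than elsewhere. The 14742 such sites in the dense bins had a median width of 503, 527, 521, 536, 548 and 565 bp from 0 to 72 h. The median change between 72 and 0 h was 47 bp there, 50 bp in the medium bins and 61 bp in the sparser ones. A site was wider at 72 h than at 0 h in 67.8% of cases in the dense bins and 73.6% in the sparser bins. With each list's narrowest width subtracted these shares were 61.8% and 67.9%. From 6 to 72 h, the 72 h peak was the wider at 59.4% of sites in the dense bins, against 67.3% in the sparser ones. These differences were not tested.

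The single widest peak in the dense bins was listed at 6 h, not in late hypoxia. Peaks of at least 2000 bp were most frequent at 72 h, at 4.06% of peaks in the dense bins, against 3.41% at 0 h. The widest peak in the dense bins at 0 h measured 14759 bp, on chromosome 22 from 46497568 to 46512326, and that at 6 h 17988 bp, over the same stretch from 46493338 to 46511325. At this place the widest peak measured 8886, 8838, 8443 and 9908 bp from 12 to 72 h. The peaks overlapping the 6 h peak, counted at full width, summed to 18672, 18613, 18507 and 18657 bp at those times. Those overlapping the shorter 0 h peak summed to 17268, 14608, 17244 and 18657 bp. From 12 h on the widest peak in the dense bins lay on chromosome 1, where a peak from 7640460 to 7651359 measured 10900 bp at 12 h. In the other 5 lists, by time, its counterparts measured 10091, 10285, 10740, 10151 and 11181 bp.

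Peak regions in the dense bins were held by every list more often than those elsewhere. When the peaks of all 6 lists were merged, 20912 of 36007 regions in the dense bins (58.1%) were present in each list, against 51.8% in the medium bins and 42.5% in the sparser ones. Regions seen at 72 h alone made up 4.02% in the dense bins and 8.66% in the sparser bins. Regions absent at 0 h and present in all 5 hypoxia lists made up 2.52% and 3.23%, and regions seen at 0 h alone 1.82% and 1.73%. Of the 72 h peaks in the dense bins, 6285 (19.2%) had no 0 h overlap, with a median width of 314 bp, against 592 bp for those that did. Wider and closer peaks overlap more readily, and the part of that in these shares was not tested.

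Bins of the same density near chromosome ends, 23 in number, had a similar course. Their peaks numbered 7415 at 72 h, against 6967 at 0 h, 6.43% more. Their covered length at 72 h was 18.5% above that at 0 h, against 15.7% in the dense interior bins, and their median width was 546 bp at 72 h, against 490 bp at 0 h. The difference between these 2 kinds of bin was not tested.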

How the data were processed

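Each deposited list names a chromosome with the start and end of every peak, and has no header, height, fold, p or summit. Positions are the authors' and the build is hg19, per the submitters' processing notes, which also name BWA 0.7.17, MACS2 and HTSeq without role. The calling threshold was not given in the sources used here, nor whether the input (not analysed here) was the control. Lists were made per sample and hold no overlapping peaks. Groups follow each sample's labelled oxygen and hours.

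Peaks were assigned to 1 Mb bins by midpoint, and chromosome ends are 0 and the largest peak end in any list. Overlap was at least 1 bp. Sites of a pair of lists were assigned by their own midpoint, so that their numbers differ by a few peaks from counts by peak midpoint. Intervals are 95% exact binomial (Clopper-Pearson, for a ratio conditional on the sum) and cover counting error only. Named bins were the 5 with most 0 h peaks, the 5 on either side of the threshold and the 5 lowest and highest from 6 to 72 h; named peaks were the widest per list and the 5 of 72 h that joined most. The members, groups and tests were chosen with earlier results of these data known. No genome or annotation of hg19 was used here, so genes and sequence are not given, and the gene lists planned for an hg19 annotation were not run. The site accounting was tested on 8400 simulated sites, each kept, gained, lost, joined from 2 peaks or split into 2. Of 10 quantities checked, 10 came back exactly, among them a permutation p that did not use the sites. Joins of 3 or more peaks were not simulated. Tests ran in SciPy 1.17.1 and statsmodels 0.14.6 (Benjamini-Hochberg), tables in pandas 2.3.3 and NumPy 2.4.6, figures in Matplotlib 3.10.9, under Python 3.11.15.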

Additional observations from a re-analysis of the deposited data

How the results depend on the processing

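Of 73 alternatives, 41 kept their value or side of the threshold. The ratio of peak number in the dense bins, 72 over 0 h, was 1.102 in bins with 200 or more peaks, 1.04 with 300 or more, 1.18 with peaks of at least 500 bp and 0.922 with the 285292 widest peaks of each list, which reversed it; that choice leaves the 0 h list whole and sets a floor of 298 bp at 72 h. For covered length the same settings gave 1.18, 1.13, 1.21 and 1.098. The share of 72 h peaks joining 2 or more 0 h peaks was 5.96% and 8.23% with those 2 thresholds, 6.74% in bins chosen on the 12 h list, 6.50% with 5 Mb left out at the ends, 6.70% in 500 kb bins, 6.05% with at least 0.5 of the 0 h peak covered and 8.16% with the widest peaks. The difference in median width kept its sign throughout, and lay between 92.2 and 94.6 bp when lists were left out in turn, where 5 lists allow no p under 0.0625. Relations with hours are compared here by their unadjusted p; the reported ones did not pass once adjusted, and the alternatives were not adjusted. That of median width, with an unadjusted exact permutation p of 0.0236, no longer passed 0.05 with 5 Mb left out (r = 0.795, exact permutation p = 0.0528) and with the mean (r = 0.783, exact permutation p = 0.0611), and lay between 0.663 and 0.960 when lists were left out in turn, with an unadjusted p under 0.05 only without the 6 h list. For peaks of at least 1000 bp, r was 0.867 (exact permutation p = 0.0208) with peaks within 300 bp merged, and between 0.581 and 0.972 when lists were left out in turn, likewise under 0.05 only without the 6 h list. Chosen after seeing the data, the 72 members lower at 72 than at 6 h became 10 at a fold of 1.2 and 33 with the widest peaks. The other causes were not tested. No paired analysis was possible because each time has 1 library. Depth is unknown, so its effect on joining and on number has no value here.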

Other observations

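Outside the autosomes no bin reached the density described: the fullest 1 Mb bin of chromosome X held 227 peaks at 0 h and 240 at 72 h. On the alternative chromosome 17 contig ctg5_hap1, 176 peaks were listed at 72 h, against 139 at 0 h.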
